A study of Arabidopsis thaliana with 8 samples.

Results

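The accessible regions of the pericentromeres of Arabidopsis thaliana were described across 8 ATAC-seq libraries, an assay in which the Tn5 transposase cuts and tags DNA that is not tightly packed. Peaks of all 8 lists were merged where they shared at least 1 bp. A merged region was a member when its middle lay at 11.5 to 17.7 Mb of chromosome 1, 1.1 to 7.2 Mb of chromosome 2, 10.3 to 17.3 Mb of chromosome 3, 1.5 to 6.3 Mb of chromosome 4 or 9 to 16 Mb of chromosome 5 (TAIR10 build). This gave 2487 members of 24103 nuclear regions, and the other 21616 are called the arms.

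The libraries came from shoots of seedlings aged 7 to 9 days, grown on plates at 25 °C with 16 h of light and 8 h of dark. Plants were of 2 recombinant inbred lines, RIL149 and RIL50, each a fixed mosaic of 2 accessions, Ler (Landsberg erecta) and Cvi (from the Cape Verde Islands). Each line was sampled at generation 3 and at generation 10 in 2 lineages, so each combination of line and generation has 2 libraries, and the labels name no treatment. Sublineage 1 was used at generation 3 and sublineage 2 at generation 10 in 3 of the 4 lineages. RIL149 lineage 2 was of sublineage 1 at both generations. The last number of the sample titles, not explained there, was 3 in every generation 3 library and 4 in every generation 10 library. A difference between generations thus includes any difference between sublineages and whatever that number stands for. The labels do not say whether a library came from a single plant or a pool, so the spread between libraries is the only error known here. No parent accession was measured, and reads were placed on the Col-0 reference, so that a difference in sequence and a difference in accessibility between the lines cannot be told apart.

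Pericentromeres flank the centromeres. In Arabidopsis they are rich in transposons and pseudogenes, poor in genes, heavily methylated in CG and non-CG contexts and packed as heterochromatin, yet they contain islands of ordinary genes whose promoters can be open. Recombination is rare there, so that long parental blocks are inherited together in recombinant inbred lines.

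The label held for the windows as a whole. They contained 109 protein-coding genes and 121 pseudogene loci per Mb, against 273 and 12.1 per Mb in the arms, by the gene table used here. The tissue label was checked with marker genes: peaks lay in all 8 libraries at the ends of 7 of 9 shoot genes and of 1 of 10 root genes (CASP1). No library had an end peak at 4 of the root genes, against 0 of the shoot genes. Other root genes had one in some libraries, among them EXPA7 in 6, WOX5 in 5, COBL9 in 4 and SMB in 1. The markers thus separate the tissues only in part. Both a shoot and a root marker lie inside the windows. The gene of the small Rubisco subunit RBCS3B had a peak in 8 libraries, and the root cap gene BRN1 had a peak in 3. At the edges of the windows the rule separates regions that look alike. The members closest to an edge lay at DFL2, a gene of the GH3 family of auxin conjugation, (chromosome 4, 1499755 to 1501162) and by the non-coding locus AT5G04115 (chromosome 5, 9000705 to 9001521), with mean folds of 7.55 and 3.15. The closest regions left out lay at the gibberellin 2-oxidase gene GA2OX4 (chromosome 1, 17699840 to 17700276) and at AT4G10080 (chromosome 4, 6299796 to 6300526), with mean folds of 15.2 and 3.63, and all 4 were open in all 8 libraries.

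Listed regions were sparse in the pericentromeres. There were 80.0 members per Mb against 245.5 regions per Mb in the arms, and the members covered 29.95 kb per Mb against 105 kb per Mb. Counted per protein-coding gene the values were closer, at 0.735 members and 0.898 arm regions. Of 3383 protein-coding genes in the windows, 1565 (46.3%) had a peak near an end in at least 1 library, taken as 1000 bp outside to 200 bp inside, and 701 (20.7%) had one in all 8 libraries. In the arms the shares were 75.6% and 47.1% of 24061 genes. The 1818 window genes with no end peak in any library made up 53.7%, against 24.4% in the arms. Reads that cannot be placed in repeats would also leave no peak. The mapping quality used is not given, and the part of read placement in these values was not tested.

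Each library placed a similar share of its peaks in the windows. In RIL149 the 2 generation 3 libraries had 1541 and 1137 member peaks (lineages 1 and 2) and the generation 10 libraries had 1819 and 2046. In RIL50 the counts were 1751 and 1612 at generation 3 and 1732 and 1449 at generation 10. The lines overlapped, since the lowest and the highest library were both of RIL149. Their means were 1635.75 ± 391 for RIL149 and 1636 ± 139 for RIL50 (SD, n = 4 each), so the difference of 0.25 peaks was far below the spread. Generation 10 libraries had 1761.5 ± 247 and generation 3 libraries 1510.25 ± 264 (SD, n = 4 each). The difference of 251.25 was about as large as the SDs, the ranges overlapped, and with the same number of peaks taken from each library the difference was 0.75. As a share of all nuclear peaks, which numbered 13186 to 21540 per library, member peaks made up 8.55% to 9.5%. Read totals are not part of the lists. A genome-wide background pileup, which moves with depth, was computed from fold and p and was lowest in RIL50 generation 3 lineage 1 at 8.71 and highest in RIL50 generation 3 lineage 2 at 25.3. The lists also hold peaks of the organelle genomes, so this pileup need not follow the nuclear depth. A peak that is not listed was not called in that library, which does not by itself show closed chromatin.

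Where the pericentromeric chromatin was open, it was open over a shorter length and with a lower enrichment than in the arms. The fold enrichment of a peak is the authors' own value, the pileup at the summit over the local background, with 1 added to both. The median fold of member peaks was 3.99 and 3.77 in RIL149 generation 3, 4.30 and 4.30 in RIL149 generation 10, 4.74 and 3.58 in RIL50 generation 3 and 3.54 and 4.65 in RIL50 generation 10 (lineages 1 and 2). In all 8 libraries it was below that of the arm peaks, by 0.445 to 0.605. Without the stretch on chromosome 2 that resembles mitochondrial DNA, described further on, it was also below the arms in 8 of 8 libraries. The median width of a member peak was 238 to 273 bp, against 261 to 316 bp in the arms, and it was again lower in 8 of 8 libraries. Peaks with a fold under 2 made up 6.17% to 11.8% of those in the windows and 0.181% to 4.17% of those in the arms. The median fold had no single relation to the background pileup. In RIL50 the medians were higher in the libraries with pileups of 8.71 and 8.88 than in those with 25.3 and 20.5. In RIL149 the medians of 3.99, 3.77, 4.30 and 4.30 went with pileups of 11.8, 12.5, 13.9 and 20.6.

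**Figure D1:**
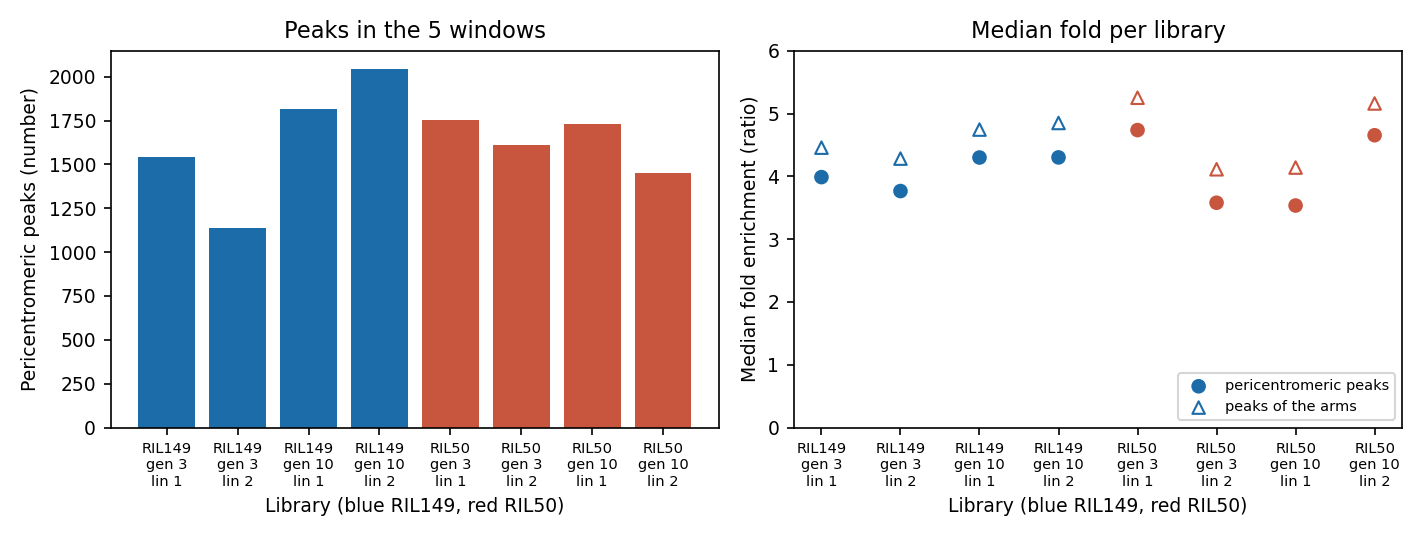
Left, number of peaks inside the 5 windows in each library, as bars coloured by line. Right, median fold enrichment (authors' ratio) of the pericentromeric peaks (filled circles) and of the peaks of the arms (open triangles). Every circle lies below the triangle of the same library, and peak numbers run from 1137 to 2046, both in RIL149.

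Members were shared by fewer libraries than regions of the arms. All 8 libraries held 869 members (34.9%), while 434 (17.5%) were listed in a single library. In the arms the shares were 46.5% and 11.5%. A library held between 42.8% and 78.8% of the members, and between 51.7% and 85.8% of the arm regions, with the lowest value of both in RIL149 generation 3 lineage 2 and the highest of both in RIL149 generation 10 lineage 2. Of the members listed once, 164 were in RIL149 generation 10 lineage 2, the library with the most peaks, and 2 were in RIL149 generation 3 lineage 2, the library with the fewest. Members of a single library were weak and narrow, with a median fold of 2.55 and a median width of 150 bp. Those held by all 8 had a median fold of 5.75 and a merged width of 466 bp. Arm regions held by all 8 had a median fold of 6.37 and a merged width of 521 bp, both above the members. In each of the classes of 1 to 7 libraries the members' median fold was the higher one, from 2.55 against 2.40 for a single library to 3.91 against 3.74 for 7 libraries.

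**Figure D2:**
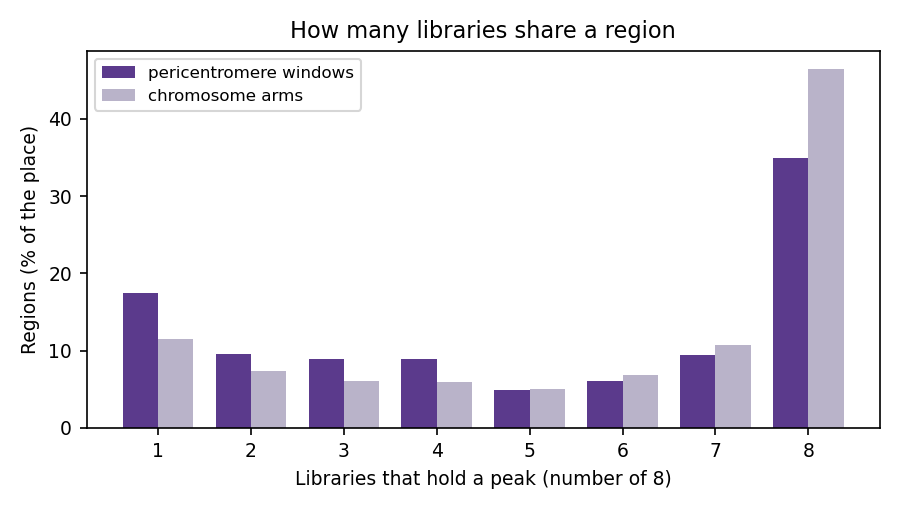
Share of regions (percent of the place) against the number of libraries that hold a peak there, for the pericentromere windows and the chromosome arms. The bar for 8 libraries is at 34.9% for the windows and 46.5% for the arms, and the bar for 1 library at 17.5% and 11.5%.

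Most members lay next to genes. The ends of protein-coding genes were touched by 1625 members (65.3%; arms 82.7%), and 174 (7.00%; arms 5.54%) lay within gene bodies. Of the members at no protein-coding gene, 228 (9.17%; arms 0.671%) were classed as pseudogene and 93 (3.74%; arms 2.53%) as non-coding. A member of either class could also lie near a locus of the other type. No locus of the table was near 367 members (14.8%; arms 8.60%). Members at gene ends were open in all 8 libraries in 37.7% of cases, against 27.6% for pseudogenes and 31.3% for members near no locus. In the arms, 48.8% of gene-end regions and 24.8% of pseudogene regions were open in all 8. Pseudogene is the locus type given by the table, which does not mark transposable elements. Members inside transposable elements, among them any typed as pseudogenes, are therefore not told apart from the rest.

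The members thinned out towards the centromeres. The inner part of each window, 15.55 Mb in all, held 729 members or 46.9 per Mb. The outer parts on both sides, of the same length in all, held 1758 or 113 per Mb. Of the inner members 38.1% were open in all 8 libraries and of the outer ones 33.6%, but without the mitochondrial-like stretch the inner value was 31.6% and the density 36.2 per Mb. Gene ends were touched by 72.5% of outer members and by 40.9% of inner members outside that stretch. The longest stretches free of any region were 433 kb on chromosome 3 (12670494 to 13103546), 349 kb on chromosome 5 (12088731 to 12437671), 343 kb on chromosome 4 (4205333 to 4547845), 282 kb on chromosome 2 (3795179 to 4077343) and 228 kb on chromosome 1 (15652630 to 15880309). In the arms the longest was 82.6 kb. Whether reads could be placed in the stretches free of regions was not tested. The median gap between neighbouring regions differed less, at 3.68 kb in the windows and 2.37 kb in the arms. The stretch of the heterochromatic knob on the short arm of chromosome 4 in the Col-0 assembly (1.6 to 2.3 Mb) had 40 members. Of these, 17 were open in all 8 libraries. The labels do not say whether either line carries the knob.

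**Figure D3:**
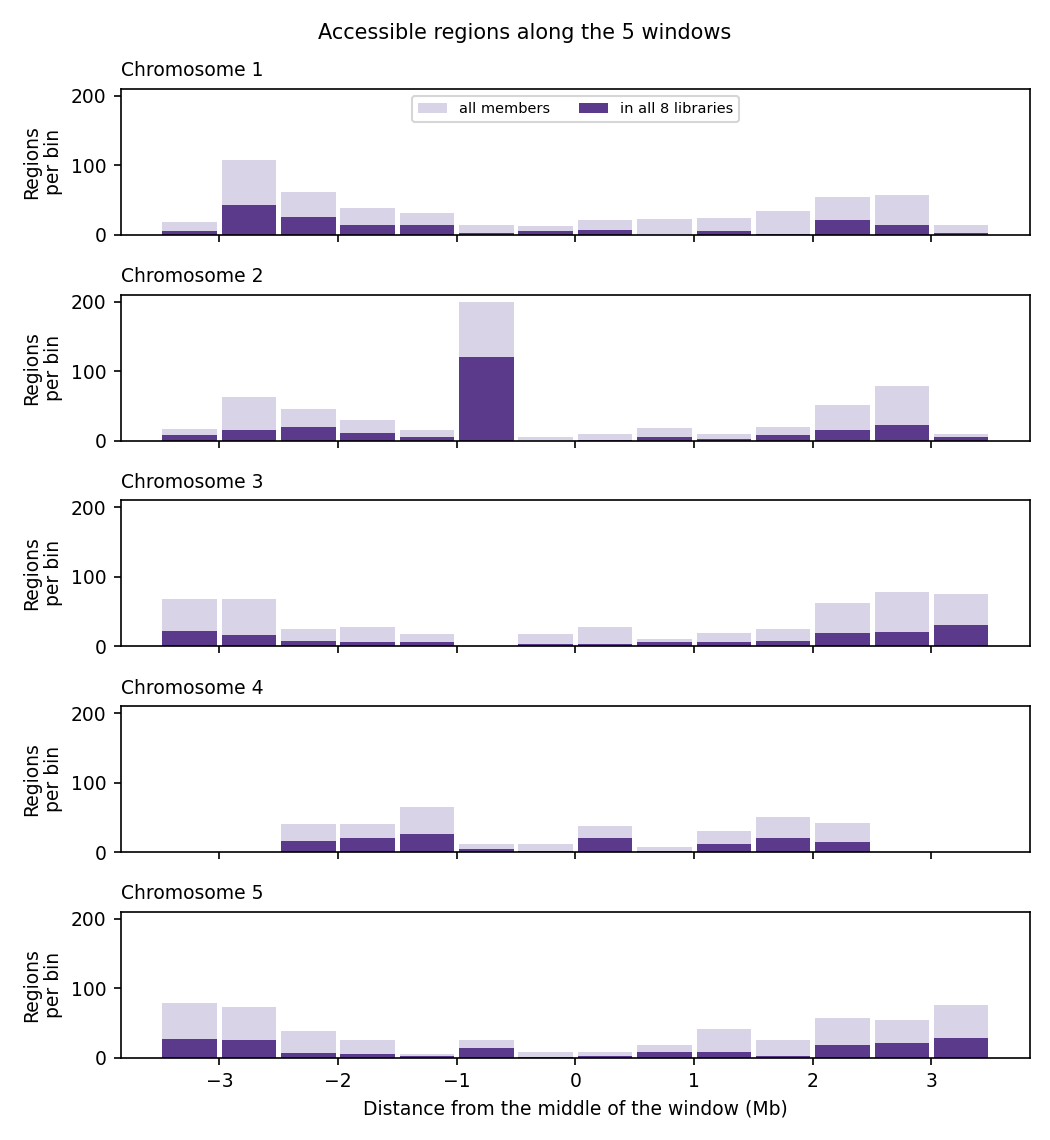
Number of regions in bins of 0.5 Mb along each window, by distance from the window's middle in Mb, for all members (pale) and for those in all 8 libraries (dark); the outermost bins of chromosomes 1, 2 and 4 reach past the window's edge. Most bins near the middle hold few regions. Exceptions include 1 bin of chromosome 2 with 200 members, 121 of them in all 8 libraries. Another is the chromosome 4 bin from 0 to 0.5 Mb with 38 members, 20 of them in all 8 libraries.

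The densest stretch of the pericentromeres was 3.2 to 3.6 Mb of chromosome 2, where the Col-0 nuclear genome carries a large insertion of mitochondrial DNA. It held 181 members, 7.28% of the total, at 452.5 per Mb, and 105 of them (58.0%) had a peak in all 8 libraries. These were wide and low: the median fold was 1.77 and the median merged width 565 bp, against 3.71 and 274.5 bp over the other members. The number of peaks there hardly varied, with 166 and 162 in RIL149 generation 3, 162 and 185 in RIL149 generation 10, 168 and 181 in RIL50 generation 3 and 177 and 169 in RIL50 generation 10. By contrast, the local background under these peaks was far above that of the rest of the nuclear genome. It was 113 and 113 in RIL149 generation 3, 104 and 122 in RIL149 generation 10, 81.7 and 313 in RIL50 generation 3 and 249 and 95.6 in RIL50 generation 10, which is 5.94 to 12.4 times the genome-wide value of the same library. The background under the peaks of the mitochondrial genome itself was 119, 120, 111, 129, 87.1, 338, 264 and 104 in the same order. The ratio of the stretch to the mitochondrial genome was 0.918 to 0.952 in the 8 libraries. The mitochondrial genome held 213 to 242 peaks per library with median folds of 1.58 to 1.83, and those of the stretch were 1.67 to 1.93. Reads of the insertion and reads of the organelle cannot be told apart in these lists, and the labels do not say whether either line carries the insertion. Whether these peaks reflect accessibility of the nuclear genome was not tested. With the stretch left out, chromosome 2 fell from 94.1 to 68.9 members per Mb and from 41.8% to 34.4% open in all 8 libraries, which compares with 29.8% to 40.7% on the other chromosomes.

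**Figure D4:**
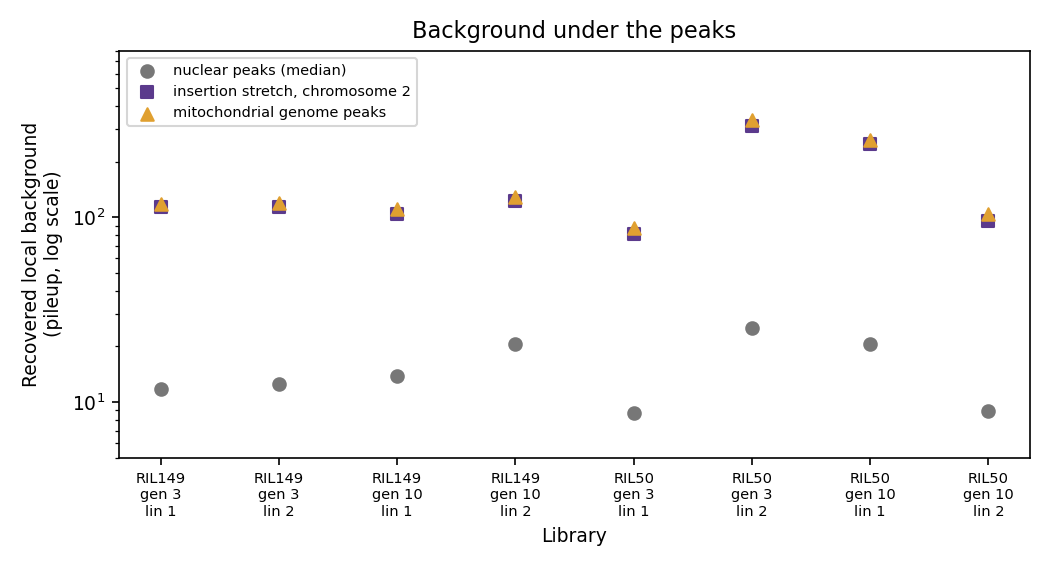
Recovered local background (pileup, log scale) in each library for nuclear peaks (median, grey circles), for peaks of the mitochondrial-like stretch of chromosome 2 (purple squares) and for peaks of the mitochondrial genome (orange triangles). Squares and triangles nearly coincide in every library, at 81.7 to 313 and 87.1 to 338, and lie well above the circles.

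A high background marked further members. In all, 237 members (9.53%) had a median background of at least 5 times the genome-wide value, 176 of them in the mitochondrial-like stretch, while 10 arm regions (0.0463%) had one. The highest lay in a cluster on chromosome 3 with no locus in the table, where the region from 13590259 to 13592460 was held by all 8 libraries with a mean fold of 12.3. Its summit pileup was 4251 in the lowest library and 13260 in the highest, over backgrounds of 313 to 1068. Close behind was a cluster further along chromosome 3 at the ribosomal RNA locus AT3G41768 (14197640 to 14199314; mean fold 2.32) and the RNA locus AT3G06365 (14200362 to 14203443; mean fold 2.3), and another on chromosome 4 from 3951757 to 3955424 with mean folds up to 9.18. Ribosomal RNA genes are present in many copies, and whether read placement in repeats adds to these values was not tested. Outside these stretches the background under most members was the genome-wide value of the library.

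The strongest peak of the pericentromeres had nearly the same fold in all 8 libraries. The region of the pseudogene AT3G33072 (chromosome 3, 13632986 to 13633282) had folds of 43.7 and 42.2 in RIL149 generation 3, 42.3 and 43.6 in RIL149 generation 10, 42.6 and 45.2 in RIL50 generation 3 and 44.8 and 43.7 in RIL50 generation 10. Its peaks were 291 to 297 bp wide. The highest fold was 1.07 times the lowest, against a median of 1.93 times for members open in all 8 libraries and 1.84 times for such regions of the arms. A region with no locus in the table (chromosome 2, 3607054 to 3607365) was nearly as even, with folds of 22.7 at the lowest, a median of 24.7 and 26.7 at the highest. Its background was 2.98 times the genome-wide value. The next even one, at the end of STOP1 (chromosome 1, 12549923 to 12550553), had folds from 20.8 to 26.0 with a median of 22.6. STOP1 encodes a zinc-finger transcription factor of tolerance to acid soil and aluminium. The region of AT2G08986 (chromosome 2, 3625835 to 3626423) had folds of 18.9 to 24.3, over a background 18.1 times the genome-wide value. It also lay shortly past the end of that stretch. Whether organelle reads add to either of these chromosome 2 regions was not tested. The 2 remaining ones lay close together on chromosome 1. The region with no locus (13172490 to 13172922) had folds of 14.9 to 32.8 and that at the end of AT1G35660 (13192360 to 13192771) folds of 14.7 to 31.6. In both, RIL149 generation 3 lineage 2 was lowest and RIL50 generation 3 lineage 1 highest.

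Among the strongest members, the folds of 2 pseudogene regions were ordered by lineage and not by generation. AT5G31909 (chromosome 5, 11765769 to 11765952) had folds of 27.4 and 26.5 in RIL149 lineage 1 (generations 3 and 10) and of 43.6 and 42.5 in RIL149 lineage 2. In RIL50 the folds were 16.6 and 16.98 in lineage 1 and 28.1 and 27.8 in lineage 2. Both generations of a lineage were close to each other, and the lineages of a line did not overlap. AT2G07080 (chromosome 2, 2938203 to 2938739) had folds of 20.3 and 26.2 in RIL149 lineage 1, 37.8 and 35.3 in RIL149 lineage 2, 12.7 and 14.7 in RIL50 lineage 1 and 26.7 and 22.7 in RIL50 lineage 2. The same order held here, with lineage 2 above lineage 1 in each line. A search over all regions open in all 8 libraries, made after these values were seen, asked for lineage 2 to exceed lineage 1 by at least 1.3 times in both lines. It found 3 members of 869 and 0 of 10047 arm regions, or 0.0275% of all, and the reverse order was found in 0 of either. Of the 3, 2 are the regions above that prompted the search and the factor. The contrast with the arms is therefore not read as a result. The other member was the pseudogene AT4G08340 (chromosome 4, 5268151 to 5269246), with folds of 9.93 and 11.0 in RIL149 lineage 1, 19.4 and 15.9 in RIL149 lineage 2, 7.72 and 6.001 in RIL50 lineage 1 and 11.4 and 10.9 in RIL50 lineage 2. With no minimum factor, lineage 2 was higher in both lines in 7 members (0.806%; arms 0.756%), so the order alone was as frequent as in the arms. The labels give no link between lineages of the same number in RIL149 and RIL50.

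Strong peaks in every library also lay next to genes with a symbol. The strongest of these after STOP1 were as follows, ranked after their values were seen. The unfolded-protein-response factor BZIP60 had a mean fold of 21.4 ± 3.17 (SD, n = 8; range 14.7 to 25.4). The allantoinase gene ALN had 21.1 ± 2.82 (16.98 to 25.7), the 14-3-3 protein gene GRF3 19.8 ± 3.53 (14.8 to 23.9) and the chloroplast HSP90 gene CR88 18.5 ± 5.00 (12.3 to 26.6). Next came the kinesin TES of male meiotic cytokinesis (16.96 ± 4.63), the polyubiquitin gene UBQ11 (15.9 ± 3.65), the plastoglobule protein gene FIB (15.8 ± 1.62), the F-box gene FBW2 (15.6 ± 2.11) and the callose synthase gene GSL1 (15.4 ± 3.41). Others further down, picked for their known roles and not by rank, were the auxin response factor ARF8 (13.8 ± 3.89), the expansin EXPA5 (13.0 ± 2.29), the photosystem II subunit PSBX (12.7 ± 4.14) and the histone H2B genes HTB9 (12.5 ± 4.48) and HTB11 (12.2 ± 1.45). UBQ11 and the histone genes have close copies elsewhere in the genome, so reads there may be split between copies.

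The 4 widest members open in all 8 libraries lay over a raised background, of which 2 reached 5 times the genome-wide value. The widest, 3964 bp by AT2G07701 (chromosome 2, 3370597 to 3374560), had folds of only 2.79 to 3.23 over a background of 4.003 times that value. The others were 3082 bp at AT3G06365 (background 34.0 times), 2440 bp by the pseudogene AT2G07670 (chromosome 2, 3507263 to 3509702; folds 3.99 to 4.91, background 3.68 times) and 2425 bp by AT2G07631 (chromosome 2, 3319791 to 3322215; folds 1.96 to 2.53, background 10.8 times). In contrast to the strongest members, all 4 had low folds. Those on chromosome 2 all lay inside the mitochondrial-like stretch, where reads cannot be told apart from reads of the organelle. AT3G06365 lay in the high-background cluster of chromosome 3 that holds the ribosomal RNA locus.

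Between the lines, the rule for a line-specific region was a peak in 4 of 4 libraries of RIL149 and 0 of 4 of RIL50, or the reverse. It was met by 108 members (4.34%), where the same count over all regions was 384 (1.59%) and over the arms 276 (1.28%). Of these, 57 were open only in RIL149 (2.29%; all regions 0.705%) and 51 only in RIL50 (2.05%; all regions 0.888%). The per-region test, an exact permutation test of presence over the 70 arrangements of 4 against 4 libraries, called 0 regions of 24103 (0% of all regions). Its smallest p of 0.0286, the smallest the design allows, became 1 after Benjamini-Hochberg adjustment over all regions, so no single region could pass. Before adjustment the 108 members and 384 regions had that p. The share of line-specific members was above that of the arms under 17 of 17 settings, with each library left out in turn among them, by 2.71 to 3.78 times (3.401 times as reported). Pairs of libraries of one line shared more members on average than pairs across lines. The shared members over the joint members averaged 66.5% within RIL149, 74.2% within RIL50 and 62.7% between the lines, and the values for the arms were 72.4%, 79.5% and 73.5%. The ranges overlapped, at 53.0% to 77.8% within RIL149 and 53.8% to 68.1% between the lines.

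Chromosome 3 carried nearly as many line-specific members as the other windows together. There, 50 of 524 members (9.54%) were line-specific, 31 only in RIL149 and 19 only in RIL50. On chromosome 5 it was 25 of 537 (4.66%), on chromosome 1 it was 15 of 515 (2.91%) and on chromosome 2 it was 16 of 574 (2.79%). Chromosome 4 had 2 of 337 (0.593%), the only window in which the share was below that of the arms of the same chromosome, which was 1.99%. The arms of the other chromosomes had 0.725% to 1.52%. The 2 of chromosome 4 lay by AT4G02865 (3648856 to 3649003, only in RIL149) and at AT4G05365 (5156491 to 5157033, only in RIL50), with mean folds of 3.35 and 2.51.

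**Figure D5:**
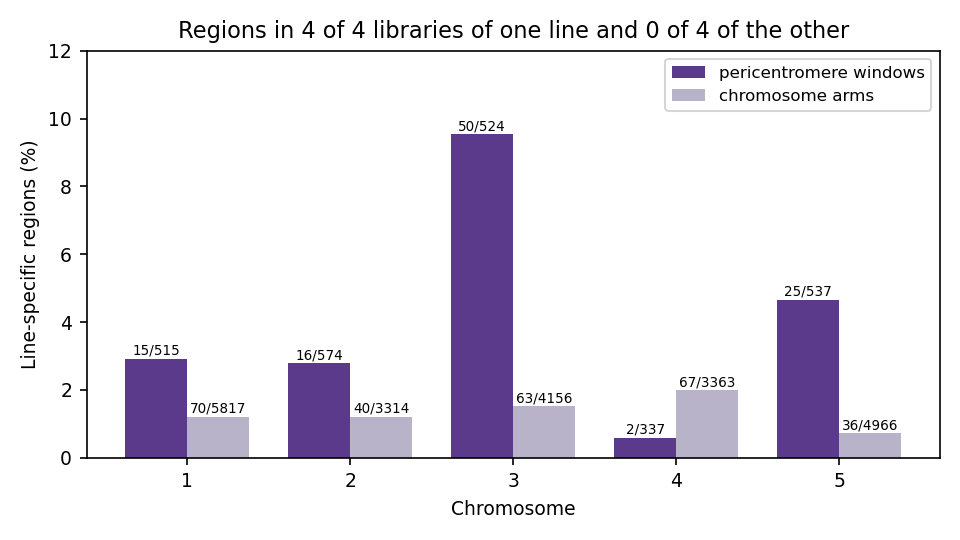
Share of regions (percent) that are in 4 of 4 libraries of one line and 0 of 4 of the other, by chromosome, for the pericentromere windows and the arms; the numbers above the bars give line-specific regions over all regions. The window of chromosome 3 reaches 9.54%, and that of chromosome 4 lies at 0.593%, below its arms.

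Line-specific members lay close to each other in places. In 15 instances 2 consecutive line-specific members were less than 10 kb apart, and in 13 of these both were open in the same line. The longest run lay on chromosome 3 between 11097258 and 11124953, with 6 members. Of these, 4 were open only in RIL149 and 2 only in RIL50, so both lines were represented. A run of 4 between 14212481 and 14223831 on chromosome 3 was open only in RIL149.

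The line-specific members had higher folds than other members held by 4 libraries, and fewer of them touched gene ends. They were set beside the 114 members held by 4 libraries in another combination, without a test. The median fold was 5.04 for the line-specific ones and 2.85 for the others, and 56 (51.9%) against 1 (0.877%) had a mean fold of at least 5. Folds are means over the libraries that hold a peak. The others are found in some libraries of a line and missing from the rest, as weak peaks often are. The difference in fold is thus partly built into the choice of sets and is not read as a trait of line-specific members. Of the line-specific members 39.8% touched the end of a protein-coding gene, against 61.4%. Pseudogenes made up 21.3% against 10.5%, and members near no locus 27.8% against 15.8%. Read the other way, 10.1% of pseudogene members and 8.17% of members near no locus were line-specific, against 2.65% at gene ends. The arms had the same order at lower shares, with 3.45%, 1.78% and 1.15%. The background under 101 of the 108 was at the genome-wide value (less than 5% above it), so high-background stretches held few of them. Members only in RIL149 had a median fold of 5.68 and those only in RIL50 one of 4.61.

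Of the 6 strongest members open only in RIL149, the first lay by a pseudogene and the next near no locus of the table. By the pseudogene AT3G29120 (chromosome 3, 11097258 to 11097642) the folds were 20.3 and 15.6 at generation 3 and 23.8 and 23.1 at generation 10, and no RIL50 library listed a peak. The region with no locus on chromosome 1 (16145538 to 16145788) had 17.4 and 9.89 at generation 3 and 19.4 and 20.5 at generation 10. At AT5G28919 (chromosome 5, 10940566 to 10941210) the folds were 9.46, 7.31, 11.8 and 16.7 in the same order. In all of these lineage 2 of generation 3, the library with the fewest peaks, was lowest. The long non-coding RNA AT3G27990 (chromosome 3, 10398116 to 10398384) had 10.0, 7.53, 10.9 and 14.99. LBD26, a gene of the LOB-domain family of transcription factors, had 9.46, 6.28, 10.3 and 13.4 (chromosome 3, 10372752 to 10373268). The pseudogene AT3G30214 (chromosome 3, 11861574 to 11861851) had 7.27, 6.72, 12.2 and 13.0. In all 6 regions both generation 10 libraries were above both of generation 3. The background pileup was also higher at generation 10 in RIL149 (13.9 and 20.6, against 11.8 and 12.5), and its part in this order was not tested.

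Genes with a symbol were few among the members open only in RIL149. The orphan gene QQS, known for natural epialleles that differ in methylation, had 2 such members 0.401 kb apart on chromosome 3 (12348862 to 12349109 and 12349511 to 12349859), with mean folds of 3.83 ± 0.543 and 8.91 ± 2.61 (SD, n = 4). A member inside the cysteine desulfhydrase gene DES1 (chromosome 5, 10029537 to 10030386) had 8.13 ± 2.15 (SD, n = 4). These were picked for their symbols after their values were seen.

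The strongest members open only in RIL50 reached the same folds. The pseudogene AT1G43715 (chromosome 1, 16489065 to 16489277) had folds of 22.4 and 16.3 at generation 3 and 17.6 and 23.7 at generation 10, and no RIL149 library listed a peak. The region with no locus on chromosome 3 (11207168 to 11207595) had 21.3, 16.1, 15.3 and 19.6. By GRP3S, which encodes a glycine-rich protein (chromosome 2, 1968287 to 1968565), the folds were 19.5, 12.4, 13.8 and 16.0. In these 3 the libraries with the 2 lowest background pileups had the 2 highest folds. The region of AT2G03965 (chromosome 2, 1251961 to 1252498) was even, with 13.7, 13.6, 12.1 and 13.6. That of AT3G44400 (chromosome 3, 16049535 to 16049997) had 11.0, 8.38, 7.63 and 13.1. That of chromosome 1 with no locus (14509510 to 14509717) had 8.13, 8.99, 11.8 and 6.48, highest in lineage 1 of generation 10.

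Weaker members only in RIL50 lay by genes with a symbol, picked in the same way. They included the calmodulin gene CAM7 (mean fold 5.39 ± 1.71), the actin-depolymerizing factor ADF2 (4.61 ± 1.68), OS9 of endoplasmic-reticulum quality control (4.38 ± 1.63) and the actin gene ACT12 (3.38 ± 0.261), each as SD with n = 4. CAM7, ADF2 and ACT12 belong to gene families, so read placement there is uncertain.

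Members open in all 8 libraries also differed in height. The spread of fold, highest over lowest library, was at least 3 in 32 of 869 (3.68%; arms 2.46%). It was largest by the pseudogene AT1G39750 (chromosome 1, 14824299 to 14824811), where RIL149 had folds of 5.40, 3.99, 4.30 and 3.15 and RIL50 had 15.3, 14.7, 26.8 and 11.2 (generation 3 lineages 1 and 2, then generation 10). All RIL50 libraries lay above all RIL149 libraries. Next was AT3G42660 (chromosome 3, 14750416 to 14751189), with 10.0, 9.16, 16.3 and 17.1 in RIL149 and 3.398, 3.389, 8.65 and 2.43 in RIL50. Here every RIL149 library was higher. By AT2G12475 (chromosome 2, 5067697 to 5068251) the folds were 5.94, 5.24, 3.22 and 8.05 in RIL149 and 6.08, 2.74, 14.2 and 5.46 in RIL50, and the lines overlapped. These 3 were chosen for their spread, so no test is given.

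Generation left little trace that both lines shared. Open in all 4 libraries of generation 10 and in none of generation 3 were 2 members (0.0804%; all regions 0.328%), and the reverse held for 0 members (all regions 0.0166%; both directions 0.344%). The exact permutation test with Benjamini-Hochberg adjustment called 0 of 24103 regions between generations (0% of all regions), and 2 members and 83 regions had an unadjusted p of 0.0286. One of the 2 lay in NIR1, the gene of nitrite reductase in nitrogen assimilation (chromosome 2, 6810330 to 6810545), with folds of 4.03 and 3.35 in RIL149 and 2.28 and 2.83 in RIL50 at generation 10. The other lay in PI4K GAMMA 7 (chromosome 2, 1185366 to 1185553), with 2.47 and 3.07 in RIL149 and 2.75 and 2.70 in RIL50. Both were weak, and the lowest fold of any listed nuclear peak at the genome-wide background was 1.56 to 1.96 depending on the library.

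Within each line the generations differed in number, and the numbers followed the size of the peak lists. In RIL149, 253 members (10.2%; all regions 9.44%) were open in both generation 10 libraries and in neither of generation 3, and 2 (0.0804%; all regions 0.0456%) the reverse. In RIL50, 25 members (1.01%; all regions 1.15%) were open only at generation 10 and 58 (2.33%; all regions 2.44%) only at generation 3. The shares of members thus lay near those of all regions in each of the larger counts. All peaks of the nuclear genome went from 17132 to 19542 and from 13186 to 21540 in the RIL149 lineages between generations 3 and 10, and from 19193 to 18896 and from 18447 to 16952 in those of RIL50. Whether the size of a list sets these counts was not tested.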

How the data were processed

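ATAC-seq libraries of 8 shoot samples were analysed from 8 deposited peak lists, 1 per library, called on each library separately. TAIR10, MACS2 2.2.9.1, Picard, BWA 0.7.17 and Trimmomatic 0.39 are named by the submitters' processing notes, without role or order. Not given in the sources used here are read shifting, mapping quality and the handling of organelle reads. The deposited fold is the authors' enrichment ratio at the summit, and per the file format the deposited p-value and q-value columns are on the −log10 scale. The deposited score column is the authors' integer made from q, and the deposited summit offset is in bp. Fold was used to describe and rank only.

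The members, lists and windows were chosen with earlier results of these data known. Nuclear peaks were merged at an overlap of at least 1 bp, and a library held a region when it had a peak there. Presence was tested per region with exact permutation tests (two-sided, 70 arrangements) and Benjamini-Hochberg adjustment over 24103 regions, in Python 3.11.15 with NumPy 2.4.6, pandas 2.3.3 and SciPy 1.17.1. The rule for specific regions and the recovery of pileups were tested on simulated data. Pileup and background were computed from each peak's fold and p by the Poisson relation of MACS2. The recovered pileup was a whole number within 0.05 for 99.7% to 99.9% of peaks per library. Gene names came from RefSeq (assembly TAIR10.1), a table used for names, classes and neighbours only. In 5 of 5 windows member peaks overlapped gene ends most often at no shift (41.0% to 48.2%, at most 26.5% at other shifts).

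Named regions were the 8 strongest and the 4 widest members held by all 8 libraries, the 6 strongest line-specific members in each direction, all generation-specific ones, the 3 with the largest spread of fold and those next to the window edges. Other names are marked as chosen after their values were seen. Generation 3 and 10 libraries of a line and lineage share descent. Their deviations from the group means correlated by 0.0274 (RIL149) and 0.00476 (RIL50) over all regions, and by 0.0381 and −0.0362 over members. Groups follow the labels, since file names carry other generation numbers. Alternatives were a stricter q, a fold minimum, equal peak numbers, a wider merge, a cover minimum, moved window edges and leaving out each library. Leaving out the mitochondrial-like stretch or the high-background members was added after the data were seen. Sequences and promoter motifs were not analysed here.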

Additional observations from a re-analysis of the deposited data

Results flagged for a closer look

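The number of pericentromeric peaks moved in opposite directions with generation in the lines. From generation 3 to 10 it went up by 278 and 909 in the RIL149 lineages 1 and 2, a mean of 593.5, and it dropped by 19 and 163 in the RIL50 lineages, a mean change of −91. All lineages of a line moved the same way, which is what singled this out, and the difference between the lines was not tested. The nuclear peak total moved alike, by 2410 and 8354 in RIL149 and by −297 and −1495 in RIL50. As a share of all nuclear peaks the change was 0.313 and 0.876 percentage points in RIL149 and 0.0428 and −0.191 in RIL50. Among 40 groups of 4 libraries examined for a value far from the others, none had one by Dixon's test at the 95% level.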

How the results depend on the processing

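Of 82 values recomputed under alternatives other than leaving out a library, 6 reversed and 9 moved beyond the spread between libraries or, for counts, beyond 1.5 times. The other 67 stayed within those bounds, which are wide: the difference between generations in mean member peaks went from 251.25 to 0.75 with equal peak numbers, and the number of members from 2487 to 1671. The line-specific share of members was 4.34% and went to 6.10% with equal peak numbers. The share open in all 8 libraries (34.9%) was 40.1% with equal peak numbers, 22.7% when peaks had to cover 50% of a region, 37.5% with windows widened by 0.5 Mb and 32.4% without high-background members. The 2 generation-specific members became 6 with equal peak numbers, 8 with the cover of 50%, 0 with narrowed windows and 6 with widened ones. The difference in mean member peaks, RIL149 minus RIL50, was −0.25 and turned to 0.5 with a −log10 q of at least 5, 21 with a fold of at least 2, 27.75 with equal numbers, 11 with narrowed windows, 4.75 without the mitochondrial-like stretch and 9 without high-background members, and to −49.25 with the cover of 50%. The cause of these shifts was not tested.

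Leaving out a library gave 2331 to 2487 members, 35.5% to 41.9% open in all, 113 to 152 line-specific members (4.66% to 6.11%), 4 to 19 generation-specific ones, and differences in mean peaks of −137 to 166 between lines and 127 to 355 between generations. Fewer libraries relax the rule for a specific member. Members only in RIL149 ranged from 58 to 101, the highest without RIL149 generation 3 lineage 2, and those only in RIL50 from 51 to 79, the highest without RIL50 generation 10 lineage 2. The generation-specific count was 19 without RIL50 generation 10 lineage 2. With the lineage as a replicate block, the exact sign-flip test over the 4 pairs called 0 regions. Its smallest p is 0.125, so it cannot make a call. The exact permutation test without the block has a smallest p of 0.0286. Between generations 83 of 24103 regions reached it, too few for any to pass adjustment. The counts of calls thus say nothing on stability.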
